A study of Mus musculus with 15 samples.

Results

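Granulosa cells are the somatic cells that surround the oocyte in the follicle, and 10 of their genes were examined here in mouse oocyte libraries: Inha, Inhba, Amh, Amhr2, Fshr, Cyp19a1, Foxl2, Fst, Kitl and Hsd17b1. They were chosen by name as a list of granulosa cell genes, and all 10 were found among the 55401 gene identifiers of the count tables. The libraries came from Kunming mice, and each was made by SMART-Seq2 amplification of the RNA of 6 pooled oocytes. The question put to the data was how much RNA of granulosa cell genes each library held, and whether that amount differed between oocytes grown in vivo and oocytes from cultured follicles. There were 5 groups of 3 libraries. The IVV group held germinal vesicle oocytes from cumulus-oocyte complexes taken by puncture of antral follicles. The IVG groups held oocytes from preantral follicles cultured without neurotrophin-4 (NT-4) for 10 days (IVG day 10) or 6 days (IVG day 6), and the IVG-NT groups those from follicles cultured with NT-4 for 10 days (IVG-NT day 10) or 6 days (IVG-NT day 6). The series gives an age of 12 to 14 days for the mice and no separate age for IVV. In all groups the oocytes were stripped of the surrounding cells by pipetting in hyaluronidase before lysis. The 3 libraries of a group came from repeated experiments, and the labels do not tie a library to particular animals, so the p-values measure the spread between these pools.

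Inhibins and activins share subunits: Inha encodes the alpha subunit of inhibin, and Inhba encodes the beta A subunit, which forms activin A with itself or inhibin A with the alpha subunit. Follistatin, the product of Fst, binds and blocks activin. Granulosa cells respond to FSH through Fshr, convert androgens to estradiol with the aromatase Cyp19a1 and the reductase Hsd17b1, and secrete anti-Müllerian hormone (Amh), which acts through Amhr2. Kitl, the ligand of the oocyte receptor Kit, is the best known signal from granulosa cells to the growing oocyte, and Foxl2 is a transcription factor that keeps granulosa cell identity.

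Total counts ranged from 5954262 to 55593251 per library, with a median of 39274848. IVG-NT day 6 replicates 1 and 2 were the shallowest, at 5954262 and 7125348 counts with 13338 and 10991 genes detected, so each gene result that involves IVG-NT day 6 rests on 1 deep and 2 shallow libraries. These 3 libraries were also unlike one another. The Spearman correlation of their counts was 0.06 between replicates 1 and 2, and 0.32 and 0.36 with replicate 3. Within the other groups it was 0.67 to 0.95. A single ribosomal RNA gene, CT010467.1, took 12.5% to 37.9% of the counts in 9 libraries, termed rRNA-rich (2 libraries of each in vitro group, replicates 1 and 2, but only replicate 3 of IVV), and 0.187% to 0.714% in the other 6, termed rRNA-poor. The labelled cell type was present in all libraries: the 12 oocyte genes examined, Gdf9, Bmp15 and the zona pellucida genes among them, had counts in all 15 libraries and summed to 12720 to 22999 normalized CPM (counts scaled to 1000000 of the library's TMM effective size, which adjusts its total for composition). The 10 granulosa cell genes summed to 5.05 to 233 CPM, or 0.000407% to 0.0256% of all counts. Since the libraries are bulk pools, fewer adhering cells and less RNA per cell cannot be told apart, and neither can RNA of adhering cells and RNA made in the oocyte.

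The 250 bases before the annotated start are given for 3 genes with a matched RefSeq window: Inhba and Fshr, which were called between days or groups, and Amhr2, for which IVV did not overlap any in vitro library. They come from RefSeq on GRCm38.p6, 5′ to 3′ on the strand of the gene. RefSeq windows were matched for 7 of the 10 genes, and none of these 3 windows overlapped an annotated exon. Capitals mark matches, on either strand, to AAGGTCA (the half-site bound by NR5A family receptors) or to the E-box CACGTG, a palindrome. The 2 motifs do not overlap each other.
Inhba, chr13:16011601-16011850, plus strand, no match to either motif: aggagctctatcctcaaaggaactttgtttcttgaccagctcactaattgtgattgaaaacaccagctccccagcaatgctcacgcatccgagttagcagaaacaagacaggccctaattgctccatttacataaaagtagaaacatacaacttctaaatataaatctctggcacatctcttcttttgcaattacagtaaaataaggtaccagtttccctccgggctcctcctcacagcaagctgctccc
Fshr, chr17:89200676-89200925, minus strand, 1 E-box that begins 61 bases before the start: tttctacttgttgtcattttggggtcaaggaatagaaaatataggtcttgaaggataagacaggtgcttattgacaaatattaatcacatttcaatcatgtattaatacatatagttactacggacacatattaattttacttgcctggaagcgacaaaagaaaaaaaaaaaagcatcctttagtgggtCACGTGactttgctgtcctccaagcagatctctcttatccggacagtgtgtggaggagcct
Amhr2, chr15:102445117-102445366, plus strand, 1 half-site that begins 231 bases before the start: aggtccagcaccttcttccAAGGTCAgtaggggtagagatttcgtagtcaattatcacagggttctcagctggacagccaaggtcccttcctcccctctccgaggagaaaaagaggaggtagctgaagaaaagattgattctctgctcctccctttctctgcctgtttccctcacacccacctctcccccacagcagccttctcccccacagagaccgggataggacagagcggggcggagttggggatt
Among 32851 promoter windows of this length, 4.08% held AAGGTCA and 6.02% held CACGTG. These matches describe the letters and say nothing about binding in these samples.

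The inhibin and activin subunit genes gave the most counts. Inha (chromosome 1, 75507077 to 75510366 on mm10, plus strand) was at 82.3, 40.7 and 119 CPM in IVV replicates 2, 3 and 4. In IVG day 10 it was at 3.51, 83.4 and 94.0 CPM and in IVG-NT day 10 at 13.2, 52.5 and 46.7 CPM in replicates 1, 2 and 3. After 6 days it was at 11.9, 33.1 and 1.47 CPM without NT-4 and at 0, 4.35 and 2.98 CPM with it. The group means ran from IVV (80.8 ± 39.4 CPM, SD, n = 3) through IVG day 10 (60.3 ± 49.5), IVG-NT day 10 (37.5 ± 21.2) and IVG day 6 (15.5 ± 16.1) to IVG-NT day 6 (2.44 ± 2.22), and every pair of neighbours in this order overlapped. IVG day 10 replicate 1 stood far under the other libraries of its group. Replicate 1 of IVG-NT day 6, with 0 counts, could have held up to 0.542 CPM, the level of 3 counts at its depth (limits of this kind cover counting error only).

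Inhba (chromosome 13, 16011851 to 16031621, plus strand) followed another order. It was at 12.7, 34.6 and 10.5 CPM in IVV, at 6.79, 71.3 and 64.3 CPM in IVG day 10 and at 17.5, 47.0 and 21.4 CPM in IVG-NT day 10. On day 6 it was at 0.720, 0 and 0.50 CPM in IVG and at 0, 0 and 0.538 CPM in IVG-NT. The 9 libraries of IVV and of day 10 lay above all 6 libraries of day 6, and within each of these sets the groups overlapped. In the same IVG day 6 libraries Inha was detected in all 3, so the alpha subunit was counted where the beta A subunit was near or at 0.

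Fst (chromosome 13, 114452290 to 114458951, minus strand) was at 9.97, 6.67 and 17.7 CPM in IVV, 0.140, 5.40 and 13.3 CPM in IVG day 10 and 0.618, 2.47 and 3.18 CPM in IVG-NT day 10. In IVG day 6 it was at 0.720, 9.58 and 0 CPM, and no library of IVG-NT day 6 held a count. The 3 libraries of IVV lay above those of IVG-NT day 10, and IVG day 6 overlapped both day 10 groups. Fst shares 115 exon bases with the antisense gene Gm47040, which had at most 23 counts in a library, and the use of strand in the counting is not given in the sources used here.

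Anti-Müllerian hormone and its receptor had the fewest counts, summed over the 15 libraries. Amh (chromosome 10) had 5 counts in IVV replicate 2, 11 counts in IVG day 6 replicate 2 and 0 counts in the other 13 libraries, and it was the one gene of the 10 that fell under the filter on low counts. Amhr2 (chromosome 15) was at 1.88, 2.43 and 3.50 CPM in IVV, at 0, 0.635 and 1.16 CPM in IVG day 10 and at 0, 0.271 and 0.327 CPM in IVG-NT day 10. It was detected in replicate 1 of IVG day 6, at 1.30 CPM, and in no library of IVG-NT day 6. Every IVV library thus lay above every in vitro library for Amhr2, on 40 to 172 counts in IVV.

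Fshr (chromosome 17, 88984952 to 89200675, minus strand), the FSH receptor, was at 6.97, 1.94 and 5.22 CPM in IVV, 9.38, 16.1 and 8.20 CPM in IVG day 10 and 10.5, 17.0 and 10.8 CPM in IVG-NT day 10. On day 6 it was at 0.972, 1.34 and 6.43 CPM in IVG and at 0, 0 and 0.489 CPM in IVG-NT. The 6 libraries of day 10 lay above the other 9.

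The estrogen synthesis genes did not share a pattern. Hsd17b1 (chromosome 11) was at 6.89, 11.3 and 12.4 CPM in IVV, 1.24, 16.2 and 4.77 CPM in IVG day 10, 2.53, 5.72 and 6.08 CPM in IVG-NT day 10, 2.09, 28.5 and 0.177 CPM in IVG day 6 and 0, 0 and 0.831 CPM in IVG-NT day 6. Both its highest and its lowest non-zero value were in IVG day 6. Cyp19a1 (chromosome 9) was at 9.03, 5.64 and 10.1 CPM in IVV, 13.4, 29.6 and 12.4 CPM in IVG day 10, 20.4, 23.6 and 10.7 CPM in IVG-NT day 10, 13.2, 12.4 and 15.1 CPM in IVG day 6 and 7.77, 0 and 22.5 CPM in IVG-NT day 6. Aromatase RNA was thus at 5.64 to 29.6 CPM in 14 of 15 libraries, and the groups overlapped except that IVG-NT day 10, IVG day 10 and IVG day 6 lay above IVV.

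Kitl (chromosome 10, 100015630 to 100100416, plus strand) was the one gene detected in all 15 libraries. It was at 3.31, 4.55 and 2.46 CPM in IVV, 11.8, 9.09 and 4.79 CPM in IVG day 10, 9.16, 11.9 and 1.61 CPM in IVG-NT day 10, 7.63, 0.618 and 6.09 CPM in IVG day 6 and 92.7, 0.696 and 7.56 CPM in IVG-NT day 6. The highest value was 513 counts in the shallow replicate 1 of IVG-NT day 6, which had no count of Inha. Foxl2 (chromosome 9) was at 5.26, 1.58 and 6.32 CPM in IVV and between 0 and 2.43 CPM in the 12 in vitro libraries, with no count in 4 of them. Its exons share 12 bases with the opposite-strand gene Foxl2os, which had up to 663 counts in a library.

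Per length (FPKM, counts per kilobase of exon scaled to 1000000 of the library's total counts, without TMM), Inha was also the most abundant member in IVV, at 59.3 ± 34.0 FPKM (SD, n = 3). Hsd17b1 followed at 7.87 ± 2.43, Inhba at 2.93 ± 1.54 and Fst at 2.68 ± 1.56 FPKM. Fshr (2.17 ± 1.33), Cyp19a1 (1.95 ± 0.767), Foxl2 (1.47 ± 0.934) and Amhr2 (1.36 ± 0.534) lay close together, and Kitl was at 0.588 ± 0.103 FPKM. The ranges of Inha and Hsd17b1 overlapped no other member's, those from Inhba to Amhr2 overlapped their neighbours in this order, and Kitl lay below Amhr2 in all 3 libraries.

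**Figure D1:**
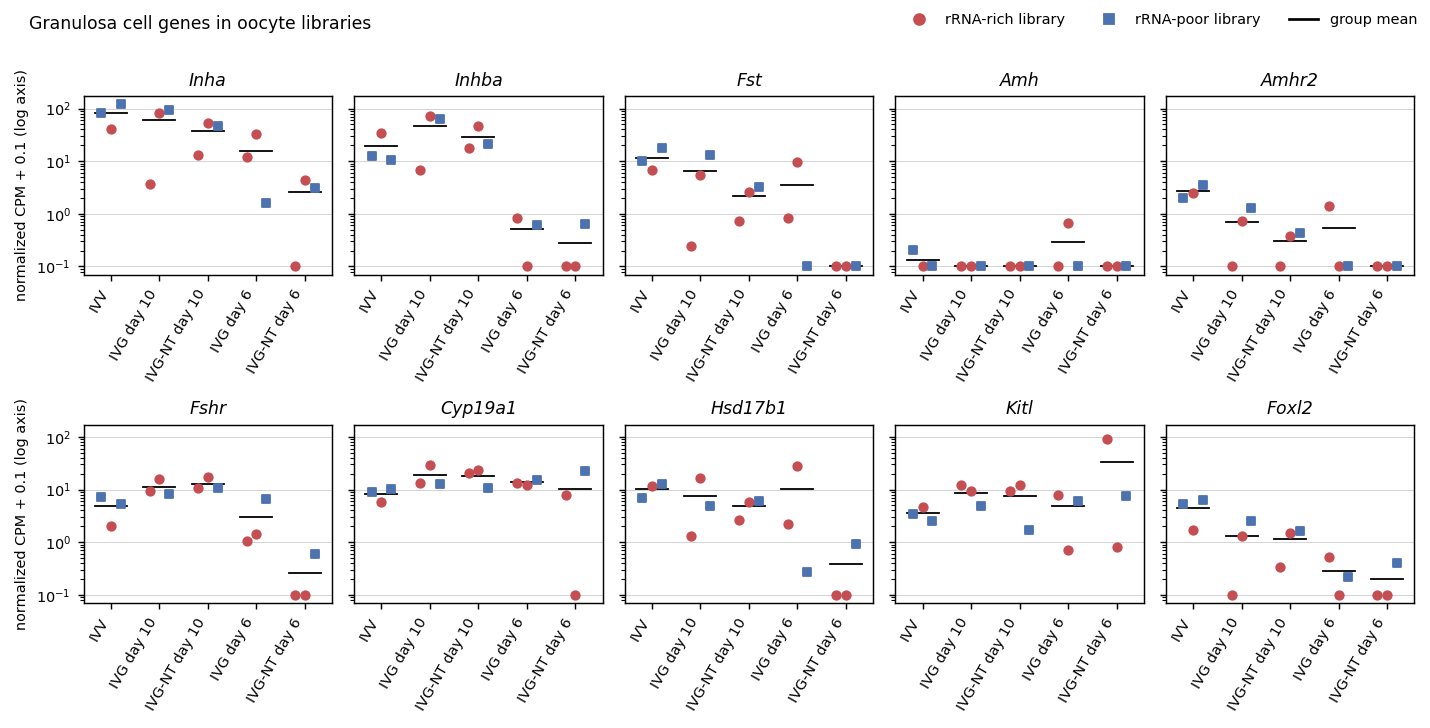
Normalized CPM, plus 0.1 and on a log axis, of the 10 granulosa cell genes in the 15 oocyte libraries; each point is a library of 6 oocytes, coloured by its ribosomal RNA content, and the line is the group mean. Inhba drops from between 6.79 and 71.3 CPM on day 10 to at most 0.720 CPM on day 6, Cyp19a1 is at 5.64 CPM or more in 14 libraries, and Kitl peaks at 92.7 CPM in 1 library of IVG-NT day 6.

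The sum over the 10 genes was 138, 109 and 188 CPM in IVV, 46.3, 233 and 205 CPM in IVG day 10, 74.1, 162 and 102 CPM in IVG-NT day 10, 39.0, 86.0 and 29.9 CPM in IVG day 6 and 100, 5.05 and 35.2 CPM in IVG-NT day 6. What made up the sum changed between groups. Inha made 37.2% to 63.6% of the member counts in IVV, while Cyp19a1 and Kitl together made 6.71% to 9.31%. In IVG day 10 Cyp19a1 and Kitl made 8.39% to 54.5% of them, in IVG-NT day 10 12.0% to 39.9%, in IVG day 6 15.1% to 70.9% and in IVG-NT day 6 100%, 13.8% and 85.4%. Without these 2 genes (a set chosen after their values were seen), the sum was 99.3 to 175 CPM in IVV, 21.1 to 194 in IVG day 10, 44.5 to 126 in IVG-NT day 10, 8.69 to 73.1 in IVG day 6 and 0 to 5.15 in IVG-NT day 6. The 10 genes therefore did not move as 1 set, and their sum is given as a sum of listed genes rather than as a measure of adhering cells.

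**Figure D2:**
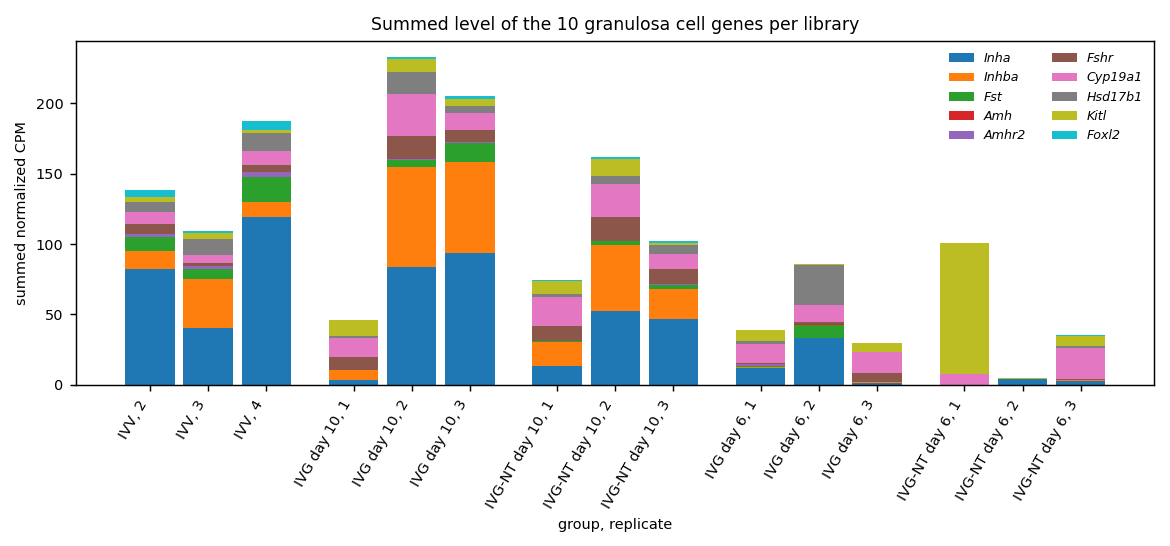
Summed normalized CPM of the 10 granulosa cell genes in each library, stacked by gene, with the 15 libraries in their 5 groups (group and replicate number on the horizontal axis). Inha and Inhba fill most of the bars of IVV and of replicates 2 and 3 of both day 10 groups, whereas Kitl makes 92.3% of the bar of IVG-NT day 6 replicate 1 and Cyp19a1 63.9% of that of replicate 3.

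The counts of each gene were also set against those of Inha within the same library, a ratio that depth and the ribosomal RNA share do not change. Per 100 counts of Inha, IVV libraries held 12.1 to 16.4 counts of Fst, 8.48 to 13.9 of Cyp19a1, 4.38 to 8.47 of Fshr and 2.06 to 11.2 of Kitl. In IVG day 10 there were 4.0 to 14.1 counts of Fst, 13.2 to 381 of Cyp19a1, 8.73 to 267 of Fshr and 5.09 to 338 of Kitl. In IVG-NT day 10 there were 4.68 to 6.81 of Fst, 22.8 to 155 of Cyp19a1, 23.1 to 79.3 of Fshr and 3.46 to 69.3 of Kitl. The proportions were thus not fixed: the ratio of Fst was lower in all 3 libraries of IVG-NT day 10 than in IVV, and the ratios of Cyp19a1 and Fshr were higher. In IVG day 6 Cyp19a1 ran from 37.4 to 1025 counts per 100 of Inha. The ratio of Inhba was 8.79 to 85.1 in IVV, 68.4 to 194 in IVG day 10, 45.9 to 132 in IVG-NT day 10 and 0 to 34.0 in IVG day 6, so that the ratio in every library of day 10 lay above that in every library of IVG day 6. The widest ratios of Cyp19a1 and Kitl belonged to libraries with 100 to 183 counts of Inha, where the divisor is small.

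**Figure D3:**
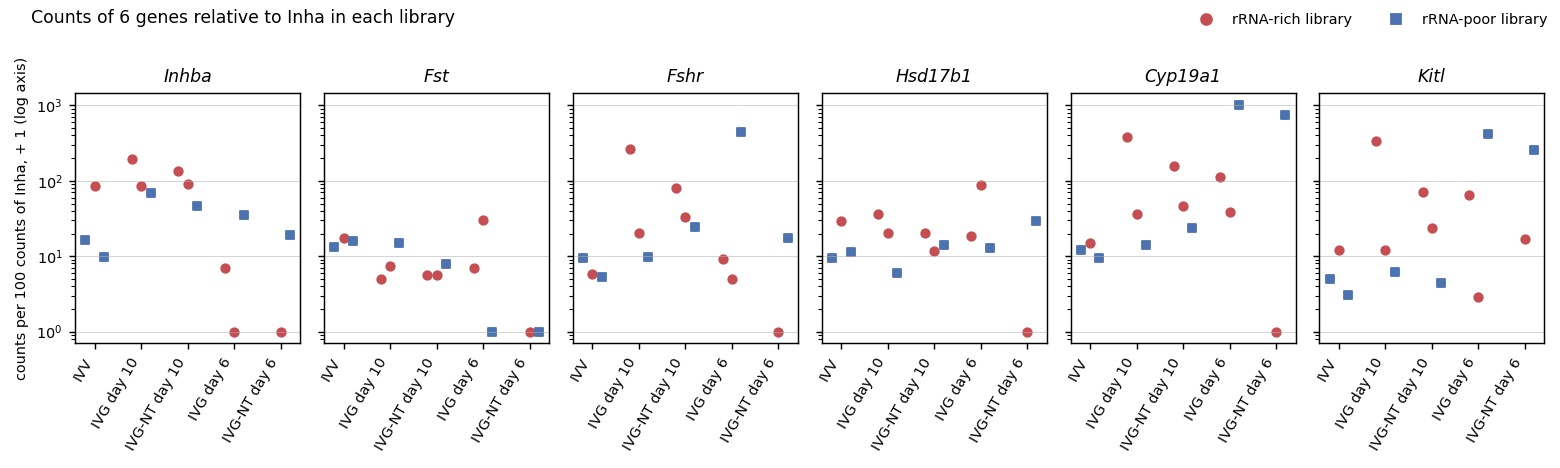
Counts of 6 genes per 100 counts of Inha in the same library, plus 1 and on a log axis, by group; points are libraries, coloured by ribosomal RNA content, and IVG-NT day 6 replicate 1 is left out because it had no count of Inha. Within IVV, Fst lies at 12.1 to 16.4 and Cyp19a1 at 8.48 to 13.9. In IVG day 6, Fst runs from 0 to 29.0 and Cyp19a1 from 37.4 to 1025.

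For differences between groups, edgeR's quasi-likelihood test was fitted to the counts of all 15 libraries, and a gene was called when its fold change exceeded 2 (log2 above 1 or below -1) at an unadjusted P under 0.05. After the filter 21009 genes were tested, 9 of the 10 members among them. After Benjamini-Hochberg adjustment over all genes tested, edgeR's quasi-likelihood test left 0 genes under 0.05 in every comparison, members included, so all calls below are unadjusted. Where IVG-NT day 6 entered, this count changed without its replicate 3, the deep library of that group. Then 2411 genes (2 members) passed in the day 6 comparison, 2549 (2 members) in IVG-NT day 10 against IVG-NT day 6 and 1218 (1 member) in the interaction. The shares called rose to 29.1%, 30.8% and 21.1%. With no filter on low counts, 881, 941 and 165 genes passed in these comparisons, and 89, 222 and 0 did among rRNA-rich libraries. The count of 0 also depended on the tool in every comparison. With DESeq2, 68, 90, 51, 654, 109 and 715 genes passed in the pairwise comparisons, in the order of their description below, and 165 in the interaction. IVV served as control in 2 comparisons and each in vitro group in several, so these comparisons share libraries.

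In oocytes from follicles cultured to day 10 without NT-4, against IVV, the FSH receptor Fshr, the Kit ligand Kitl and the aromatase Cyp19a1 were higher in all 3 libraries than in any IVV library and Amhr2 was lower, but no member passed the test. The counts were 0 called of 9 beside 2.76% of all genes, and 4 of 9 with groups that did not overlap beside 11.9% of all genes. The members with the smallest P were Inhba (log2 fold change 1.30 ± 1.32, standard error) and Foxl2 (-1.85 ± 1.92), both with an adjusted p of 1 by edgeR's quasi-likelihood test. The other 7 lay between -2.11 and 1.32, and the median over the 9 was -0.42, against -0.20 over all genes. 0 members had an unadjusted P under 0.05, and DESeq2 called 0 as well. Kitl was called higher when only the libraries of these 2 groups entered the fit.

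With NT-4 to day 10, against IVV, Amhr2, Fst, Foxl2 and Hsd17b1 were lower in all 3 libraries than in any IVV library, and Fshr and Cyp19a1 were higher. None of the 9 was called, beside 3.29% of all genes, and the 6 of 9 whose groups did not overlap stood beside 11.6% of all genes. The log2 fold change was -3.68 ± 2.50 for Amhr2 and -2.45 ± 1.93 for Fst (adjusted p of 1 for both, edgeR's quasi-likelihood test), and the other 7 lay between -2.05 and 1.43. The median over the 9 was -1.10, against -0.19 over all genes. Again 0 members had an unadjusted P under 0.05 and DESeq2 called 0. With only these 2 groups in the fit, Fst and Amhr2 were called lower.

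On day 10, oocytes from cultures with and without NT-4 overlapped for all 9 members. None was called, beside 1.24% of all genes, and none had groups that did not overlap, beside 3.59% of all genes. Fst differed by -1.58 ± 1.88 and Amhr2 by -1.57 ± 2.31 on the log2 scale (adjusted p of 1, edgeR's quasi-likelihood test), and the other 7 by -0.73 to 0.19. The standard errors, without the pairing of replicate numbers, were 1.24 to 2.31, and with the replicate block 0 members were called as well. Of the 9 members only Fshr was higher with NT-4 in 3 of 3 same-numbered pairs, with a fitted difference of 0.19 ± 1.28. The share of all genes with such agreement was not computed, so nothing is read from these pairs. 0 members had an unadjusted P under 0.05, and DESeq2 called 0.

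On day 6, Fst, Hsd17b1 and Fshr were called lower with NT-4 than without. These are 3 of 9 members, beside 11.6% of all genes called in either direction and 4.83% called lower. Fst had 0 counts in all 3 libraries with NT-4 and was at least 43.3-fold lower (level over the 3 libraries against 3 counts over the group without a count). In IVG day 6 all counts of Fst lay in the rRNA-rich replicates 1 and 2. The rRNA-poor library, replicate 3, had 0 counts in both groups, so the bound mixes the kinds of library. This bound rests on single libraries: 186 of the 206 counts in IVG day 6 lay in replicate 2, and with single libraries left out (an alternative added after seeing the data) the bound was 5.06-fold without that library, 106-fold without IVG day 6 replicate 3 and 6.72-fold without IVG-NT day 6 replicate 3. Its fitted log2 fold change, -9.96 ± 3.16, depends on the prior count and is no bound. Hsd17b1 differed by -4.96 ± 1.89 and Fshr by -3.81 ± 1.45, and the adjusted p of all 3 genes was 0.381 (edgeR's quasi-likelihood test). Hsd17b1 was at -1.72 and not called without IVG day 6 replicate 2, and Fshr was at -2.49 and not called without IVG day 6 replicate 3. Without IVG-NT day 6 replicate 3, which held the counts of both genes in its group, the fitted values were -11.46 and -9.66 and depend on the prior count, with adjusted p of 0.0477 and 0.0236 by edgeR's quasi-likelihood test. Over all alternatives the adjusted p ran from 0.0477 to 1 for Hsd17b1, from 0.0236 to 1 for Fshr and from 0.0188 to 0.928 for Fst. Of the 3, only Fshr had groups that did not overlap, 1 of 9 members beside 8.45% of all genes. The other 6 lay between -6.98 and 2.81, with Kitl the highest, and the median over the 9 was -2.65, against -0.27 over all genes. The IVG-NT day 6 libraries that held 0 counts of Fshr and Hsd17b1 were the 2 shallow ones, in which 3 counts stand for 0.542 and 0.522 CPM. Leaving out these 2 libraries leaves 1 library in the group, which is assumed to vary like the other groups. The fitted values were then -10.07 for Fst, which depends on the prior count, -3.50 for Hsd17b1 and -2.53 for Fshr. With all 3 libraries but only the 2 groups in the fit, 0 of 6 members tested were called. Fst was not among these 6, as it fell under the filter. DESeq2 on all 15 libraries left Fst under an adjusted p of 0.05 and called Kitl higher.

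Between day 6 and day 10 of culture, Inhba was the member called higher on day 10 in both arms. Without NT-4 it was called higher on day 10 by 6.84 ± 1.68 on the log2 scale (adjusted p of 1, edgeR's quasi-likelihood test), the 1 call of 9 members beside 2.9% of all genes called in either direction and 1.69% called higher. Its groups did not overlap, nor did those of Fshr, 2 of 9 members beside 7.42% of all genes. Inha had the next smallest P, at 1.96 ± 1.32, and the other 7 lay between -0.47 and 2.70, with a median over the 9 of 0.87, against 0.05 over all genes. These values leave out the pairing of replicate numbers, and with the replicate block Inhba was at 6.50. Inhba kept its call in every alternative run, between 6.27 and 7.48, and DESeq2 left it under an adjusted p of 0.05. Over these alternatives its adjusted p ran from 3.31e-05, by DESeq2, to 1.

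With NT-4, 5 of 9 members were called higher on day 10 than on day 6, beside 12.7% of all genes called in either direction and 5.45% called higher. Inhba rose by 6.90 ± 1.70, Fshr by 5.93 ± 1.60, Inha by 3.93 ± 1.44 and Hsd17b1 by 3.86 ± 1.80 on the log2 scale. Fst, without a count on day 6, was at least 52.4-fold higher on day 10 (fitted 9.25 ± 3.13), a bound that was 8.14-fold without IVG-NT day 6 replicate 3. Without that library the fitted values were 12.95 for Inhba, 11.78 for Fshr and 10.36 for Hsd17b1, which then had no count on day 6. The adjusted p was 0.357 for 4 of the 5 and 0.392 for Hsd17b1 (edgeR's quasi-likelihood test). These 5 were also the members whose groups did not overlap, beside 11% of all genes. The other 4 lay between -2.15 and 5.88, Kitl the lowest, and the median over the 9 was 3.93, or 3.86 with the genes at 0 set at their bound, against 0.40 over all genes. DESeq2 left Inhba, Fshr and Fst under an adjusted p of 0.05, and the same 3 remained called without the 2 shallow libraries, again with 1 library left on day 6. Over all alternatives the adjusted p ran from 0.000209 to 1 for Inhba, from 0.000553 to 1 for Fshr and from 0.0368 to 1 for Fst. Among rRNA-rich libraries alone the calls were Inhba, Fshr and Hsd17b1. Hsd17b1 lost its call in 11 of its 15 alternatives.

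Whether the difference by NT-4 differed between the days was tested as an interaction. Fst was called, at 8.37 ± 3.54 on the log2 scale (day 10 minus day 6, adjusted p 0.728 by edgeR's quasi-likelihood test), 1 of 9 members beside 6.37% of all genes. Fshr followed at 3.99 ± 1.90 and was not called, and the other 7 lay between -2.99 and 5.41. The Fst value takes in the group without a count and so depends on the prior count. It lost its call in 7 of 21 alternatives: without the 2 shallow libraries (1 library left in that group), without IVG day 10 replicate 2, IVG-NT day 10 replicate 3, IVG day 6 replicate 2 or IVG-NT day 6 replicate 3, among rRNA-rich libraries, and with a replicate block over the in vitro libraries.

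**Figure D4:**
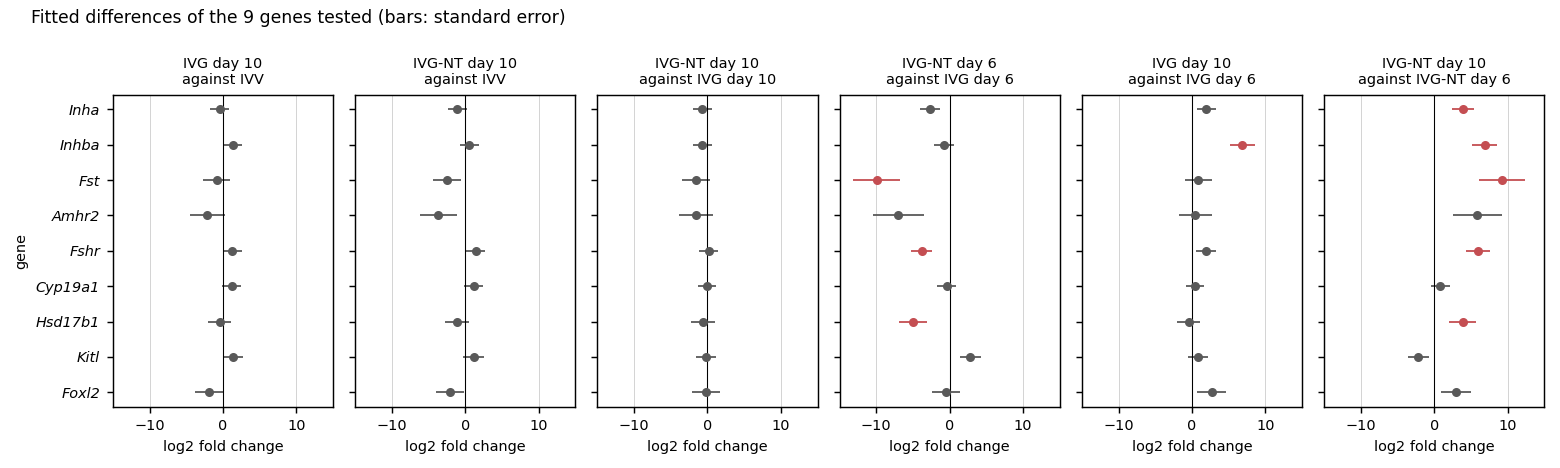
Fitted log2 fold changes of the 9 granulosa cell genes tested in the 6 pairwise comparisons, with bars of 1 standard error on either side; red marks genes called at an unadjusted P under 0.05. Red points stand in the day 6 comparison and in the comparisons of day 10 with day 6, where Inhba lies at 6.84 without and 6.90 with NT-4.

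Some other granulosa cell genes moved with the members, but the list of 18 did not follow them throughout. Its median log2 fold change from day 6 to day 10 was 0.61 without NT-4 (0.05 over all genes) and 0.43 with it (0.40). For NT-4 on day 6 it was -0.21 (-0.27 over all genes), and in the interaction -0.44 (0.33). Between day 10 and day 6 without NT-4, 4 of the 18 were called (3 higher, 1 lower), beside 2.9% of all genes (1.69% higher). With NT-4, 6 were called (4 higher, 2 lower), beside 12.7% (5.45% higher). In the interaction 1 was called, lower, beside 6.37%. Grem1, an antagonist of bone morphogenetic proteins, was at 70.4 to 206 CPM in IVG day 10 and 0 to 9.62 CPM in IVG day 6, and at 55.5 to 145 CPM in IVG-NT day 10 and 0 to 0.261 CPM in IVG-NT day 6. Inhbb, which encodes the beta B subunit that pairs with the product of Inha, was at 0.562 to 41.9 CPM in IVG day 10 against 0 to 0.177 CPM in IVG day 6, and at 5.86 to 9.03 CPM in IVG-NT day 10 against 0 to 0.636 CPM in IVG-NT day 6. Both beta subunit genes were thus near 0 on day 6, and Inhba, Inhbb and Grem1 were called higher on day 10 in both arms. Npr2, the receptor through which cumulus cells keep the oocyte in meiotic arrest, had no count in IVG day 6 and 0 to 5.56 CPM in IVG day 10, and it was called higher there. Ihh, a signal from granulosa to theca cells, was at 1.21 to 3.27 CPM in IVV and without a count in IVG-NT day 10, a called difference. Against IVV, calls on day 10 numbered 1 of the 18 without NT-4, beside 2.76% of all genes, and 2 with it, beside 3.29%, all lower. Between IVG-NT and IVG 1 was called on day 10, Ihh, lower, beside 1.24%, and 2 on day 6, 1 in each direction, beside 11.6%. The most abundant of the list were Bmpr1b (30.0 to 194 CPM) and Esr2 (3.13 to 165 CPM), which had counts in all 15 libraries. Summed, the 18 genes were at 319 to 440 CPM in IVV, 359 to 784 in IVG day 10 and 311 to 644 in IVG-NT day 10. On day 6 they were at 332 to 412 CPM in IVG and 87.6 to 953 CPM in IVG-NT, so this sum was not low on day 6 throughout.

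The list of ligands, receptors and mediators that pair with the members had sums of another order. The 15 genes of this list, with Kit, the activin receptors, the Smad genes and the oocyte factors Gdf9 and Bmp15, summed to 4763 to 13276 CPM. Gdf9 was at 1844 to 5261 CPM and Bmp15 at 657 to 6654 CPM. Both are ligands and enter the sum, so it is not a level of receptors and mediators alone. Of the 15 genes only Smad2, which carries the activin signal, was called, lower in IVG-NT day 6 than in IVG day 6 (20.9 to 47.9 against 68.6 to 161 CPM). That is 1 of 15 genes tested, beside 11.6% of all genes called in this comparison, so nothing is read from it.

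Of 9 steroid synthesis genes with an identifier, Fdxr, which passes electrons to the mitochondrial steroid enzymes, was called higher in IVG-NT day 6 than in IVG day 6 (5.20 to 87.4 against 0.360 to 2.99 CPM) and higher than in IVG-NT day 10. Hsd17b7, an enzyme of estradiol and cholesterol synthesis, was called higher in IVG-NT day 10 than in IVG-NT day 6 (36.7 to 167 against 9.03 to 64.3 CPM). It and Fdx1 (0 to 59.2 CPM) were the most abundant of the list, and no other gene of it was called. Of the 9 tested, 1 was thus called between IVG-NT and IVG on day 6, beside 11.6% of all genes. Between IVG-NT day 10 and day 6, 1 was called higher and 1 lower, beside 12.7%. The cumulus expansion genes were near absent: of 8, 2 passed the filter, Has2 and Ptgs2, and all 8 summed to at most 9.52 CPM in a library. Has2, a hyaluronan synthase, was called higher in IVG day 10 (0.499 to 2.89 CPM) than in IVV (0 to 0.122 CPM), and Ptgs2 reached 6.87 CPM. The Has2 call is 1 of 2 genes tested, beside 2.76% of all genes called in that comparison.

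Markers of other ovarian cells were present in the same libraries. The 11 theca and stroma genes summed to 9.55 to 29.0 CPM in IVV, 0 to 36.4 in IVG day 10, 0.541 to 2.76 in IVG-NT day 10, 0 to 1.79 in IVG day 6 and 0 to 7.48 in IVG-NT day 6. In IVG-NT day 10, where Amhr2, Fst, Foxl2 and Hsd17b1 lay below IVV, 6 of the 11 had no count in any library. The collagen gene Col1a2 was called lower in IVG-NT day 10 than in IVV (0 CPM in all 3 libraries against 1.32 to 5.34). It was also called lower than in IVG day 10, where 1 library held 10.4 CPM and another none. Col1a1 ranged up to 11.3 CPM, Acta2 was called lower in IVG-NT day 10 than in IVV, and Dcn was called higher in IVG-NT day 6 than in IVG day 6. Of the 7 theca and stroma genes tested, 2 were called in IVG-NT day 10 against IVV, beside 3.29% of all genes. In IVG-NT day 10 against IVG day 10 it was 1, beside 1.24%. For IVG-NT against IVG on day 6 it was 1, beside 11.6%. The 10 macrophage and blood cell genes summed to 16.9 to 67.0 CPM in IVV, 7.05 to 51.7 in IVG day 10, 5.24 to 35.4 in IVG-NT day 10, 20.3 to 64.6 in IVG day 6 and 5.05 to 59.6 in IVG-NT day 6. C1qb, a complement subunit, was at 0 to 63.1 CPM, and 7 of the 10 genes were at 0 in every IVG day 6 library. It did not lead in every library: Csf1r made 49.2 CPM of the highest sum in IVG-NT day 6, 59.6 CPM. Csf1r, Tyrobp and Lyz2 were called higher in IVG-NT day 6 than in IVG day 6, each with its highest value (49.2, 5.05 and 3.98 CPM) in a shallow library. These are 3 of 8 genes tested, beside 11.6% of all genes called. The 6 endothelial genes summed to 20.9 to 76.6 CPM, with Pecam1 (4.52 to 57.3 CPM) and Flt1 (1.83 to 39.4 CPM) ahead. Kdr was called lower in IVG-NT day 6 than in IVG day 6 (0 to 1.19 against 2.06 to 19.0 CPM) and Pecam1 lower than in IVG-NT day 10. Each is 1 of 4 endothelial genes tested, beside 11.6% and 12.7% of all genes called. The part of any of these cells in the differences of the granulosa cell genes was not tested. Among the 12 oocyte genes only Zp2, a zona pellucida gene, was called, lower in IVG day 10 than in IVG day 6 (927 to 1606 against 1364 to 4227 CPM). That is 1 of 12 genes tested, beside 2.9% of all genes called.

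Within the list, the members fell into those that followed Inha over the 15 libraries and those that did not. The Spearman correlation with Inha was 0.91 for Fst, 0.81 for Foxl2, 0.79 for Hsd17b1, 0.76 for Amhr2, 0.73 for Inhba and 0.54 for Fshr, but 0.02 for Cyp19a1 and -0.32 for Kitl. Among the 9 rRNA-rich libraries the value for Cyp19a1 was 0.52 and that for Kitl -0.23. Over all other genes tested, those most like the members' summed level were Klhl23, Serpina3a, Nnat, She, Skil, Tut4, BB365896, Npr2, Slc26a7 and Gm38034, with Spearman correlations of 0.83 to 0.88 over 15 libraries. Of the 18 other granulosa cell genes, 6 stood among the 5% of genes most like the sum, and the median correlation was 0.20 for these 18 and 0.14 for all genes. It was higher for the markers of other cells, at 0.48 for the 7 theca and stroma genes tested (0.33 to 0.70) and 0.45 for the 8 macrophage and blood cell genes tested (0.15 to 0.55), and 0.21 for both the 9 steroid synthesis and the 4 endothelial genes. Of the 12 oocyte genes none did, with a median of -0.13. These correlations are descriptions over libraries that share depth and ribosomal RNA content within their kinds.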

How the data were processed

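RNA of 15 pools of oocytes was sequenced in paired ends. The deposited values are raw counts per Ensembl gene for each library. The submitters' processing notes name FastQC, HISAT2, edgeR and mm10, and the study's methods describe alignment to that build. The counting step, its use of strand and the annotation release are not given in the sources used here. A deposited table of the whole series holds the same counts and was not used. Symbols were assigned to 99.5% of identifiers with GENCODE vM21. The members and gene lists were chosen with earlier results of these data known. All members are named, with fits for those called or the 2 of smallest P, and genes of other lists where called (at most 4 per list) or among the 2 most abundant. Lists covered other granulosa, cumulus expansion, partner, steroid synthesis, theca and stroma, macrophage and blood, endothelial and oocyte genes.

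Counts were filtered with filterByExpr (minimum count 10), scaled by TMM and tested with edgeR 4.0.16 (glmQLFit, glmQLFTest; R 4.3.3) in 1 fit of 5 group means over 15 libraries, with Benjamini-Hochberg adjustment. Unadjusted P under 0.05 with an absolute log2 fold change above 1, the study's threshold, made a call. DESeq2 1.42.0, RLE scaling, no filter, the compared groups alone, a replicate block, the kind of library (above or below 5% ribosomal RNA) and each library left out were tried. The fit was tested on simulated counts with known changes. These were set in genes of higher mean level, for IVG day 10 against IVV, with the same spread for all genes. Genes at low counts and the comparisons with day 6 were not covered. Correlations and ratios were computed with pandas 2.3.3 and SciPy 1.17.1.

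Replicate numbers are shared by the in vitro groups. Deviations from group means correlated between same-numbered libraries at 0.370, 0.413 and 0.732 for IVG-NT against IVG on day 10. For IVG day 10 against day 6 the values were 0.230, 0.147 and 0.538. In both comparisons the numbers were taken to pair the libraries, but the main fit left this pairing out. It entered only through the replicate block, an alternative. For IVG-NT against IVG on day 6 (0.0833 to 0.328) and IVG-NT day 10 against day 6 (0.0663 to 0.260) the numbers were not taken to pair the libraries. There the lowest value was under 0.1. IVV shares 2 numbers, with negative correlations. The highest correlation with another number was 0.272, 0.374 and -0.493 for IVG-NT against IVG on day 10. For IVG day 10 against day 6 it was 0.187, 0.258 and -0.240, so replicate 2 was closer to another number. The pairing is thus an assumption. Replicate 3 was the rRNA-poor library of each in vitro group, so for it pairing and library kind cannot be told apart. No 2 libraries of a group agreed within sampling noise.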

Additional observations from a re-analysis of the deposited data

Results flagged for a closer look

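The difference by NT-4 in Fst differed between day 10 and day 6 by 8.37 on the log2 scale in the interaction test of edgeR, at an unadjusted P of 0.0323 and an adjusted p of 0.728. Fst was at 0.140 to 13.3 CPM without and 0.618 to 3.18 CPM with NT-4 on day 10, and at 0 to 9.58 CPM without and 0 CPM with NT-4 on day 6. The value was positive in all 21 alternatives (5.11 to 9.49) and kept its call in 14 of them. It rests on a group without counts, in which 2 of 3 libraries held 5954262 and 7125348 counts in all.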

How the results depend on the processing

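Counts of called members are given here where they moved by over 1.5 times. With only the compared groups in the fit there was 1 call in IVG day 10 against IVV, 2 in IVG-NT day 10 against IVV, 0 in IVG-NT day 6 against IVG day 6 and 3 in IVG-NT day 10 against IVG-NT day 6. In that fit of IVG-NT day 6 against IVG day 6, 6 members were tested and Fst was not among them. Without the 2 shallow IVG-NT day 6 libraries (an alternative added after seeing the data, which leaves 1 library there, assumed to vary like the other groups) there were 1 in IVG-NT day 6 against IVG day 6, 3 in IVG-NT day 10 against IVG-NT day 6 and 0 in the interaction. With library kind added as a covariate there were 2 in IVG day 10 against IVG day 6 and 2 in the interaction. Among rRNA-rich libraries there were 3 in IVG-NT day 10 against IVG-NT day 6 and 2 in the interaction, and DESeq2 gave 3 in the interaction. With each library left out in turn the calls were 0 in the 3 comparisons without day 6, 3 to 4 in IVG-NT day 6 against IVG day 6, 1 to 2 in IVG day 10 against IVG day 6 (2 without IVG day 6 replicate 1), 4 to 5 in IVG-NT day 10 against IVG-NT day 6 and 0 to 2 in the interaction. The cause of these moves was not tested. Of 269 alternative log2 values of members named with a fit, 232 kept their direction and their side of the threshold, 30 lost the call, 7 gained one and none changed direction.

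With the replicate block over all 15 libraries the calls were 0, 0, 0, 4, 1, 5 and 1 in the 6 comparisons and the interaction, in the order of their description, against 0, 0, 0, 3, 1, 5 and 1 without it, so the block changed no count of calls by over 1.5 times. With the replicate block over the 12 in vitro libraries (added after seeing the data) the interaction had 0 calls. RLE scaling moved the median log2 of all genes by -0.19 in IVG day 10 against IVV, -0.17 in IVG-NT day 10 against IVV, 0.27 in IVG-NT day 6 against IVG day 6 and -0.36 in IVG-NT day 10 against IVG-NT day 6 and -0.32 in the interaction. It turned the sign of no member in the pairwise comparisons and of 2 uncalled members in the interaction. Depth limits IVG-NT day 6: 3 counts stand for 0.542 and 0.522 CPM in replicates 1 and 2.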
